A study of Mus musculus with 19 samples.

Results

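The genes described here are 10 members of the Wnt pathway: the secreted antagonist Sost, the ligands Wnt9a and Wnt4, the co-receptors Lrp5 and Lrp6, the receptor Fzd7, the signal transducer Ctnnb1, the nuclear factors Tcf7l2 and Lef1, and the feedback gene Axin2. They are 10 of the 35598 genes to which the deposited transcripts were assigned, and all 10 are among the 15123 genes with enough reads to be tested. The genes were listed by name and selected on measured values, since differences in these libraries were already known. Their own differences between groups are therefore given as a description. How many of them passed the threshold used for all genes is given beside the share or number of all genes that did. Nothing is read from those counts. A wider list of 100 other Wnt pathway genes is given with test results, but it too was drawn up with earlier results of these libraries known, so its counts are not independent evidence.

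Wnt ligands are secreted lipid-modified proteins that bind a Frizzled receptor together with Lrp5 or Lrp6. Receptor binding holds back the destruction complex, which contains Axin proteins, so that beta-catenin (the product of Ctnnb1) accumulates and acts in the nucleus with Tcf and Lef factors. Sclerostin, the product of Sost, binds Lrp5 and Lrp6 and blocks this step. It is best known as a product of osteocytes in bone. In skeletal muscle, Wnt signals are known to take part in the development of the tissue and in the differentiation of its precursor cells.

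RNA was measured in 19 libraries of primary myoblasts, the muscle precursor cells, isolated from mouse hind limbs and grown in culture. WT cells were sampled as proliferating myoblasts at 24 h (3 libraries), as differentiated myotubes at 48 h (3 libraries) and as fused myotubes at 72 h (4 libraries). Cells with the label Glud1KO, after Glud1, the gene of the mitochondrial glutamate dehydrogenase, were sampled at the same stages in 3, 2 and 4 libraries. The Glud1 allele, the way it was made, and the age, sex and strain of the animals are not given in the sources used here. The replicates are called biological in the labels, but nothing says that they came from separate animals or cultures, so the errors and p-values below measure only the spread between these libraries.

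The libraries held between 16168131 and 30742634 estimated counts. Levels are given as CPM, counts scaled to library size with TMM factors, or as TPM (the authors' measure per effective transcript length) where genes are compared with each other. Glud1 itself was at a mean of 189 CPM in WT and 187 CPM in Glud1KO myoblasts, 106 and 99.8 CPM at 48 h, and 135 and 133 CPM at 72 h. These CPM ranges overlapped between the labels at each stage. In TPM the labels were apart, with means of 169 and 139 TPM at 24 h, 83.8 and 61.7 TPM at 48 h and 102 and 79.4 TPM at 72 h, all lower under Glud1KO. The CPM thus give no check of the labels, and which part of Glud1 was deleted is not given in the sources used here. The names of the deposited files also mark libraries of both genotypes as knockout, those of the Glud1KO label with an added letter. For these reasons the cells are called KO-labelled throughout. The cells carried a muscle programme: Myog, a factor of terminal muscle differentiation, was at 114 CPM in WT myoblasts and 2479 CPM in WT cells at 48 h. The fibroblast marker Dpt was at 0 in all 19 libraries, and the 8 fibroblast markers summed to between 1.62 and 5.07 CPM in every library. The chondrocyte or tendon markers summed to 88.8 to 175 CPM over all libraries, and the endothelial, adipocyte and Schwann lists to at most 5.15 CPM each. The smooth muscle or pericyte list was at 38.3 to 42.3 CPM in WT and 32.0 to 34.6 CPM in KO-labelled myoblasts, and the immune list at 15.6 to 18.5 and 24.5 to 28.1 CPM at 48 h. Most of the former was Rgs5 (means 38.65 and 32.48 CPM), and most of the latter Itgam (15.77 and 25.35 CPM). The immune markers Ptprc, Adgre1, Cd68 and Lyz2 each had 48 h means of at most 0.716 CPM. The part of these lists in the results was not tested.

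Sost and Wnt9a showed contrasting patterns. Sost was lower in KO-labelled cells at all 3 stages, whereas Wnt9a differed little between the labels and was highest at 48 h under both. Both genes lie on chromosome 11 of the GRCm38.p6 build, Sost at chr11:101962458-101967015 on the minus strand and Wnt9a at chr11:59306928-59333552 on the plus strand. The 250 bases before each RefSeq start site are shown because these 2 genes carry the contrast, at chr11:101967016-101967265 (minus strand) and chr11:59306680-59306929 (plus strand), read 5′ to 3′. Capitals mark CAGCTG, a form of the E-box that muscle bHLH factors such as Myod1 are known to bind.
Sost: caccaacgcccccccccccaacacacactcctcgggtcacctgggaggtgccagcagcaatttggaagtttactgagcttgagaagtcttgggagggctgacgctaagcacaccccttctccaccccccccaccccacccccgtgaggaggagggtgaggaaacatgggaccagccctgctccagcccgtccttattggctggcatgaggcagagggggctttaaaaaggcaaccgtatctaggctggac
Wnt9a: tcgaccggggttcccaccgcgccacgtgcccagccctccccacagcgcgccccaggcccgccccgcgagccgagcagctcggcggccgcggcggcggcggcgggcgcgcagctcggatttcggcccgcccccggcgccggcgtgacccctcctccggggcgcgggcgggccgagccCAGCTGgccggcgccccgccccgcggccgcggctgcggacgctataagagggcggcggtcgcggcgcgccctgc
The Wnt9a window held 1 CAGCTG, 74 bases before the start, and the Sost window held none. CAGCTG was found in 13.0% of 32851 RefSeq promoter windows of this length (4271 windows, both strands). The core CTTTGAT, which Tcf and Lef factors are known to bind and whose letters cannot overlap CAGCTG, was found in 3.21% of the windows and in none of those of Sost, Wnt9a, Wnt4, Fzd7, Axin2, Ctnnb1, Tcf7l2 and Lef1. A match or its absence describes these letters only.

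**Figure D1:**
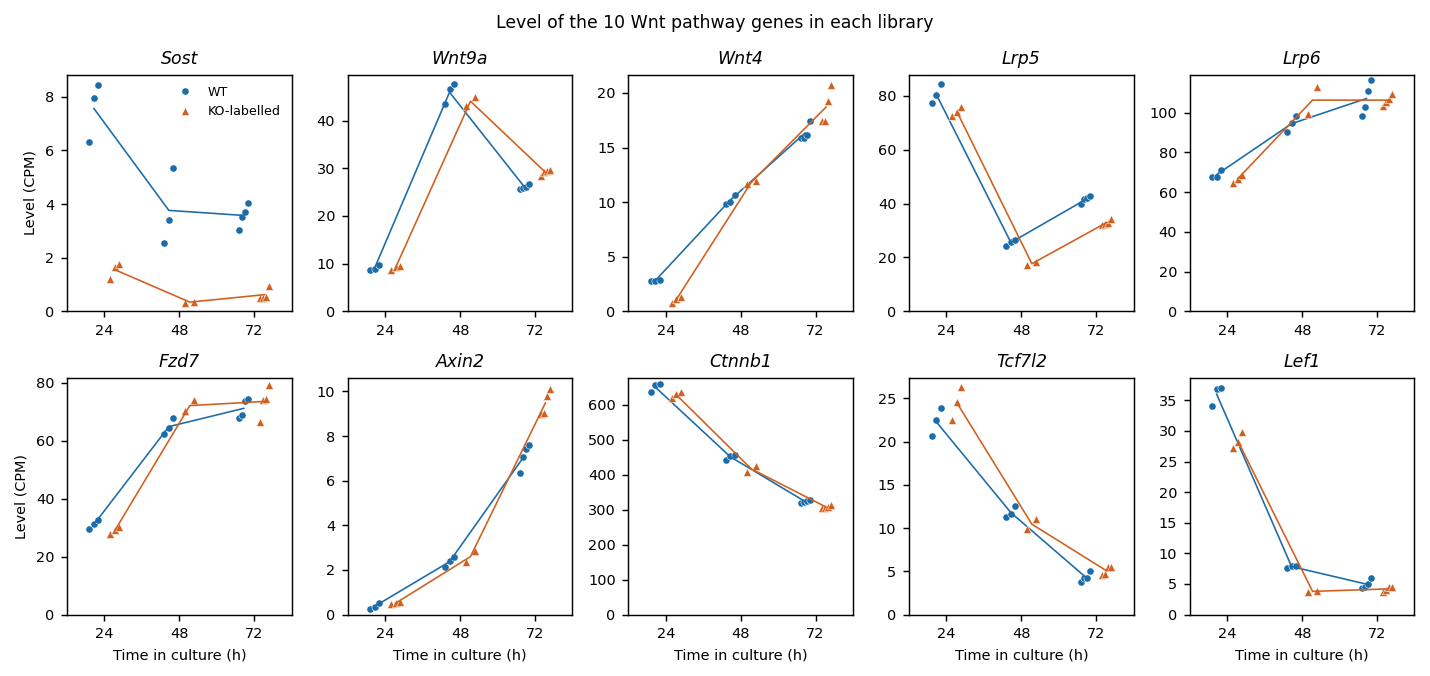
Level of each gene (CPM, vertical axis from 0) in each of the 19 libraries against time in culture (h). Circles are WT libraries, triangles are KO-labelled libraries and lines join the group means; the Sost points of the 2 labels are apart at each time, and Wnt9a is highest at 48 h under both.

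In myoblasts the antagonist Sost stood at 7.95, 6.31 and 8.42 CPM under the WT label, and the KO-labelled libraries held 1.78, 1.21 and 1.67 CPM. Every KO-labelled library was below every WT library, and the WT mean was 4.87 times the KO-labelled mean (log2 fold change -2.28, SE 0.19). At 48 h the WT libraries held 5.36, 3.40 and 2.54 CPM of Sost, and the KO-labelled libraries 0.321 and 0.367 CPM. This was the widest gap of the 3 stages, 10.9-fold (log2 fold change -3.40, SE 0.39), and it rested on 6 and 7 estimated counts in the 2 KO-labelled libraries against 72 to 113 in the WT ones. The WT libraries of 72 h held 3.70, 3.05, 3.52 and 4.04 CPM, and the KO-labelled ones 0.502, 0.945, 0.511 and 0.533 CPM. The groups again did not overlap, with a 5.74-fold gap (log2 fold change -2.53, SE 0.26), although KO-labelled replicate 2 lay above the other 3.

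Within the WT label, the mean level of Sost was 2.01 times as high at 24 h as at 48 h, and its 48 h and 72 h libraries overlapped. In bulk RNA, fewer cells that express Sost and less Sost RNA per cell cannot be told apart. Of 9 markers of osteoblasts and osteocytes, the cells best known for sclerostin, Mepe and Ibsp were at 0 in every library. The sum of the list, most of it Runx2, was 98.6 to 104 CPM in WT and 102 to 105 CPM in KO-labelled myoblasts, 48.8 to 56.1 and 53.9 to 54.6 CPM at 48 h, and 9.58 to 13.1 and 8.90 to 10.8 CPM at 72 h. These sums overlapped between the labels at each stage, but some single markers were apart at some stages. Runx2 itself ranged from 78.8 to 81.5 CPM in WT and from 83.1 to 87.4 CPM in KO-labelled myoblasts, a difference that did not pass the test (edgeR adjusted p = 0.419). Of the 5 markers with enough reads, 1 fell at each stage by edgeR's test, beside 11.5%, 25.2% and 13.0% of all genes called, and nothing is read from these counts. Sp7, an osteoblast transcription factor, fell at 24 h (edgeR adjusted p = 0.00185), from 9.21 to 6.32 CPM, and at 48 h (0.000155), from 1.29 to 0.343 CPM. Phex, an osteocyte gene, fell at 72 h (edgeR adjusted p = 0.0201), from a mean of 1.09 to 0.610 CPM, with every KO-labelled library below every WT library. Dmp1, another osteocyte gene, did not pass the test at any stage, although its 48 h libraries were apart, at 0.653 to 0.806 CPM in WT and 0.428 to 0.524 CPM in KO-labelled cells. The part of these markers in the Sost difference was not tested.

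The tested genes next to Sost on the chromosome differed from each other. Dusp3, a phosphatase gene 4128 bp away, did not pass the test at 24 h (log2 fold change -0.02, SE 0.04) or 72 h (0.01, SE 0.03). It was higher in KO-labelled cells at 48 h (0.32, SE 0.04, edgeR adjusted p = 5.97e-07), when Sost was lower. Etv4, 177087 bp away on the other side, was lower at 48 h (-0.93, SE 0.23, edgeR adjusted p = 0.00382) and did not pass at the other stages. Meox1 and Cfap97d1, the other 2 neighbours, had too few reads to be tested.

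Wnt9a, a ligand known from joint development, stood at 8.58, 8.95 and 9.73 CPM in WT myoblasts, at 43.5, 46.6 and 47.7 CPM at 48 h and at 26.2, 25.8, 25.6 and 26.8 CPM at 72 h. The WT mean was 5.06 times as high at 48 h as at 24 h (log2 fold change 2.34, SE 0.06) and then lower by 72 h (-0.82, SE 0.05), with no overlap between stages. KO-labelled cells followed the same course, with 8.77, 9.29 and 9.49 CPM at 24 h, 45.0 and 43.1 CPM at 48 h, and 29.7, 29.1, 29.5 and 28.4 CPM at 72 h. The labels overlapped at 24 h and 48 h, where the log2 fold changes were 0.01 (SE 0.07) and -0.06 (SE 0.05). At 72 h all 4 KO-labelled libraries were above all 4 WT libraries, by 1.12-fold (0.16, SE 0.05). Its neighbour Wnt3a, another ligand, had 0 counts in all libraries, and Arf1 and Snap47 did not pass the test between the labels at any stage.

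Wnt4 is a ligand known from kidney and reproductive tract development. In CPM its KO-labelled libraries were below all WT libraries at 24 h and above all of them at 48 h. Wnt9a, Fzd7, Lrp6 and Tcf7l2 also differed in sign between these stages, but their 24 h libraries overlapped. WT myoblasts held 2.85, 2.81 and 2.81 CPM of it, and KO-labelled myoblasts 1.17, 0.753 and 1.31 CPM. The 3 KO-labelled libraries were the lower ones, and the WT mean was 2.62 times theirs (log2 fold change -1.38, SE 0.16). By 48 h the WT libraries held 10.1, 9.80 and 10.7 CPM, and the KO-labelled ones 11.9 and 11.7 CPM, now with the KO-labelled pair on top (0.21, SE 0.10). This difference was not called. In TPM the 48 h libraries overlapped, at 3.01 to 3.26 TPM in WT and 3.18 to 3.37 TPM in KO-labelled cells. By 72 h the WT libraries, at 15.9, 16.2, 17.5 and 15.9 CPM, overlapped the KO-labelled ones at 17.4, 20.7, 17.5 and 19.3 CPM (0.20, SE 0.07). Wnt4 was thus 5.79 times as high at 72 h as at 24 h in WT cells, and the difference between the labels moved by 1.59 (SE 0.19) on the log2 scale from 24 h to 48 h and by 1.58 (SE 0.17) from 24 h to 72 h. Of 10 markers of muscle stage 5 fell in myoblasts by edgeR's test, beside 11.5% of all genes called. Myog was at 114 CPM in WT and 73.6 CPM in KO-labelled libraries, and Myh3, the embryonic myosin heavy chain, at 221 and 117 CPM. Their part in the Wnt4 difference was not tested. Of its neighbours, Cdc42, 19970 bp away, Zbtb40 and Epha8 did not pass the test between the labels at any stage.

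The co-receptors differed from each other in their course. Lrp5 stood at 77.4, 80.2 and 84.5 CPM in WT myoblasts, against 75.7, 74.0 and 72.5 CPM under the KO label. The 48 h libraries held 24.4, 26.4 and 25.8 CPM under WT and 17.1 and 18.2 CPM under the KO label, and the 72 h libraries 41.9, 42.7, 41.8 and 39.7 CPM against 32.9, 34.4, 32.2 and 32.5 CPM. KO-labelled libraries were below all WT libraries at each stage. The log2 fold changes were -0.12 (SE 0.04), -0.53 (SE 0.06) and -0.33 (SE 0.04) in order of time. In WT cells Lrp5 was lowest at 48 h, 3.16-fold below 24 h, whereas Lrp6 was higher at each later stage, with means of 68.8, 94.4 and 107 CPM. Lrp6, the co-receptor that sclerostin also binds, overlapped between the labels at 24 h and 72 h (log2 fold changes -0.04 and -0.02, SE 0.05 each). At 48 h its KO-labelled libraries, at 113 and 99.5 CPM, were above the WT libraries at 90.4, 98.0 and 94.7 CPM (0.17, SE 0.06).

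Fzd7, a Frizzled receptor known from muscle stem cells, was at 29.7 to 32.6 CPM in WT and 27.9 to 30.2 CPM in KO-labelled myoblasts. Its WT mean was 2.08 times as high at 48 h, at 64.9 CPM, and stood at 71.2 CPM at 72 h, where the WT libraries overlapped those of 48 h. Between the labels it differed without overlap only at 48 h, by 0.15 (SE 0.06) on the log2 scale. Ctnnb1 was the most abundant of the 10 genes, at 637, 656 and 660 CPM in WT myoblasts. Its WT means were 651, 452 and 324 CPM in order of time, a 2.01-fold span with no overlap between stages. KO-labelled libraries lay below all WT libraries at each stage, with means at most 1.08-fold apart and the nearest 24 h libraries almost level (637 CPM each after rounding), with log2 fold changes of -0.05 (SE 0.03), -0.12 (SE 0.04) and -0.07 (SE 0.03).

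The nuclear factors were both highest in myoblasts. Lef1 stood at 34.1, 36.9 and 37.0 CPM in WT myoblasts, above the 29.9, 27.3 and 28.2 CPM of the KO label (log2 fold change -0.34, SE 0.06). WT libraries of 48 h held 7.87, 7.97 and 7.67 CPM, and the KO-labelled pair held 3.85 and 3.72 CPM, 2.07-fold apart (-1.05, SE 0.12). By 72 h the labels overlapped, at 4.41 to 5.92 CPM in WT and 3.66 to 4.56 CPM in KO-labelled libraries (-0.22, SE 0.10). Lef1 in KO-labelled cells was thus at 48 h within its own 72 h range, whereas the WT mean was still 1.58 times as high at 48 h as at 72 h. Of the 10 markers of muscle stage 2 rose and 4 fell at 48 h by edgeR's test, beside 25.2% of all genes called. Those that rose were the fusion genes Mymx, from 71.2 to 113 CPM, and Mymk, from 1747 to 2114 CPM. Mki67, a proliferation marker, was at 4.65 CPM in WT and 0.792 CPM in KO-labelled cells, and Pax7, the muscle stem cell factor, at 10.6 and 5.63 CPM. Myod1 was also lower, at 814 and 657 CPM, and so was Myf5, at 63.25 and 55.19 CPM. Myog, Myh3, Ckm and Des overlapped between the labels at 48 h, with Myog at 2479 and 2464 CPM. Their part in the Lef1 difference was not tested. Tcf7l2 was at means of 22.3, 11.8 and 4.31 CPM in WT cells in order of time, 5.18-fold lower at the end than at the start. Its labels overlapped at 24 h and 72 h and were apart at 48 h, where KO-labelled libraries at 9.84 and 11.1 CPM lay below WT libraries at 11.2 to 12.5 CPM (-0.18, SE 0.10).

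Axin2, a scaffold of the destruction complex and a widely used readout of Wnt signalling, ran opposite to Lef1 over time. It stood at 0.316, 0.519 and 0.267 CPM in WT myoblasts, from 8 to 12 estimated counts, at 2.42, 2.57 and 2.11 CPM at 48 h and at 7.08, 7.61, 7.40 and 6.35 CPM at 72 h. The WT mean at 72 h was 19.4 times that at 24 h (log2 fold change 4.29, SE 0.17). KO-labelled libraries were at 9.03, 10.1, 8.99 and 9.79 CPM at 72 h, all above the WT ones (0.42, SE 0.10). At 24 h and 48 h the labels overlapped (0.51, SE 0.28, and 0.14, SE 0.17).

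**Figure D2:**
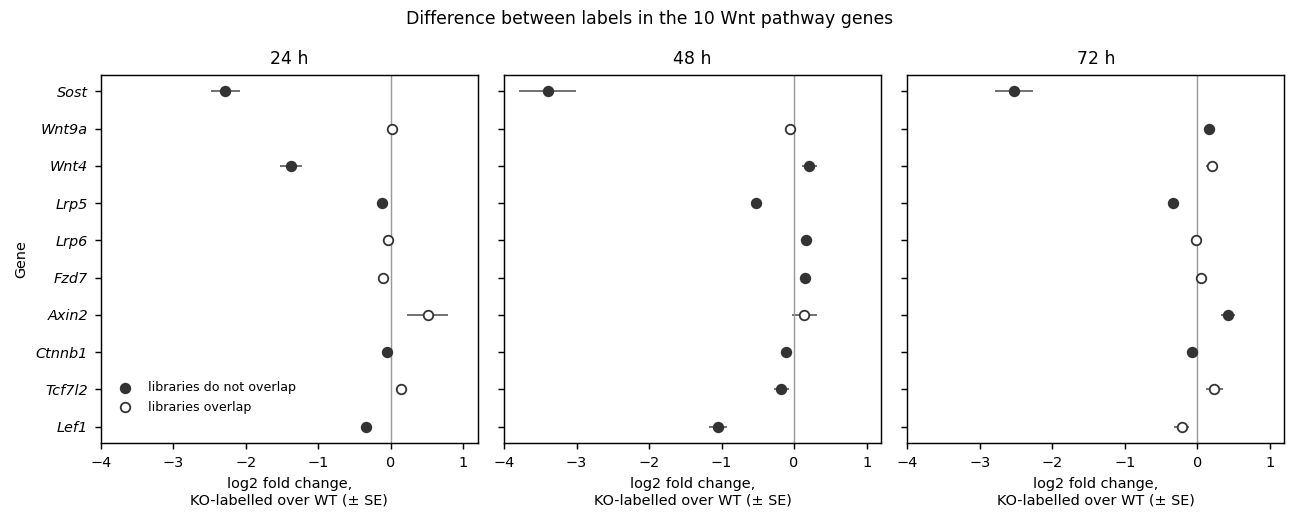
log2 fold change of KO-labelled over WT cells (horizontal axis, bars show ± SE) for the 10 genes at 24 h, 48 h and 72 h. Filled points mark genes whose KO-labelled and WT libraries do not overlap; Sost lies farthest to the left at each time, between -2.28 and -3.40.

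Across the 10 genes, 4 were called between the labels at 24 h (Sost, Wnt4, Lrp5 and Lef1, all lower), where 11.5% of all genes were called at an edgeR adjusted p under 0.05. At 48 h 5 were called, Sost, Lrp5, Ctnnb1 and Lef1 lower and Lrp6 higher, against 25.2% of all genes. At 72 h 4 were called, Sost and Lrp5 lower and Wnt9a and Axin2 higher, against 13.0%. Nothing is read from these shares, since the genes were selected with these differences known. The median log2 fold change of the 10 genes was -0.07, -0.09 and 0.02 in order of time, and that of all genes 0.01, -0.01 and -0.01. The call of Lef1 at 24 h and that of Axin2 at 72 h ended when effective transcript lengths were taken into account, and those of Lrp5 at 24 h, Lrp6 and Ctnnb1 at 48 h and Wnt9a at 72 h ended in 6 to 9 of the alternatives. With that length correction 2, 3 and 2 of the genes were called in order of time, and calls over all 15123 genes went from 1746, 3811 and 1972 to 589, 2150 and 822.

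Between the WT stages all 10 genes were called from 24 h to 48 h (85.0% of all genes) and from 24 h to 72 h (85.5%), and 9 from 48 h to 72 h (75.1%), where the call of Fzd7 ended in 10 of 15 alternatives. In each of the spans that start at 24 h 5 were higher later (Wnt9a, Wnt4, Lrp6, Fzd7 and Axin2) and 5 lower (Sost, Lrp5, Ctnnb1, Tcf7l2 and Lef1). These directions were the same when only library size was used for scaling, which moved the median of all genes to -0.23 from 24 h to 48 h and to -0.33 from 24 h to 72 h. The difference between the labels changed with the stage in 4 of the 10 genes from 24 h to 48 h (Wnt4, Lrp5, Fzd7 and Lef1, against 19.1% of all genes). It changed in 2 from 48 h to 72 h (Wnt9a and Lef1, against 14.8%) and in 2 from 24 h to 72 h (Wnt4 and Lrp5, against 10.3%). Over the alternatives run, the second of these counts ranged from 0 to 4 and the last from 1 to 2. Calls over all genes ranged from 980 to 2302 and from 667 to 1777. The call of Fzd7 ended in 9 of 19 alternatives, that of Wnt9a in 14 of 21, that of Lef1 from 48 h to 72 h with effective transcript lengths, and that of Lrp5 from 24 h to 72 h in 7 of 22.

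Ordered by TPM, Ctnnb1 was far above the rest in every group, at 453 TPM in WT myoblasts and 180 TPM in WT fused myotubes. In WT myoblasts it was followed by Lrp5 (22.0 TPM), Lef1 (19.1), Lrp6 (16.1), Tcf7l2 (13.0), Fzd7 (9.67), Sost (5.35), Wnt9a (3.96), Wnt4 (0.948) and Axin2 (0.278), with no overlap between neighbours. In WT cells at 48 h Wnt9a had reached 18.0 TPM, overlapping Fzd7 at 18.3 TPM just above it, and Sost (2.40) overlapped Wnt4 (3.12). At 72 h the lowest 4 WT genes, Axin2 (2.31), Lef1, Sost (2.10) and Tcf7l2 (1.99), each overlapped the next. In KO-labelled cells Sost was the lowest of the 10 genes at 48 h (0.199 TPM) and at 72 h (0.357 TPM), below Axin2 (0.955) and Lef1 (1.71) respectively without overlap. The order thus turned over with stage: receptors and nuclear factors led the ligands in myoblasts, and Wnt9a overlapped Fzd7 at 48 h in WT cells. In KO-labelled cells at 48 h Wnt9a (15.7 TPM) was below Fzd7 (18.4 TPM) without overlap. Lrp5 was below Wnt9a at 48 h under both labels.

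Most of these levels came from a single transcript model. Sost, Wnt4 and Fzd7 have 1 transcript each in the annotation, and the main transcripts of Wnt9a, Lrp5 and Lrp6 took 99.8%, 98.3% and 98.7% of the counts of their genes on average. The main transcript took 76.4% for Axin2, 66.5% for Ctnnb1, 61.7% for Lef1 and, of 22 annotated ones, 50.2% for Tcf7l2. In Axin2, WT myoblast replicates shared their 8 to 12 counts between transcripts unevenly, with 39.4% to 93.2% assigned to the main transcript, and only gene sums are compared here.

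Among 12370 genes with a mean of at least 1 CPM, those whose 6 group means were most like Sost were Pcdhgb2 (Pearson r = 0.995), Gas6 (0.973), Ttc28 (0.969), Greb1 (0.956) and Slc26a2 (0.941). Greb1 had WT means of 37.5, 6.66 and 4.63 CPM in order of time, and KO-labelled means of 4.04, 0.610 and 0.634 CPM. Pearson r compares the course over the groups and not the size of the changes. The 6 means of Slc26a2 ran from 23.56 to 28.19 CPM and those of Pcdhgb2 from 1.245 to 3.192 CPM. Those of Sost ran from 0.344 to 7.56 CPM. Those most like Wnt9a were Usp53, P2ry10b, Porcn, Jph2 and Lrig2 (r = 0.998 to 0.999). Porcn, the enzyme that adds the lipid to Wnt ligands, had WT means of 5.32, 55.1 and 26.9 CPM, and KO-labelled means of 5.37, 62.1 and 32.0 CPM. These likenesses are descriptions over 6 means that share their libraries.

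The wider list gave the rest of the pathway. It held 100 genes besides the 10, grouped by role, and 73 had enough reads. Of the 27 others, Wnt3a, Wnt7a, Wnt9b, Dkk4 and Sfrp5 had 0 counts in all libraries. At 24 h, 18 of the 73 changed between the labels, 4 rising and 14 falling in KO-labelled cells, a share of 24.7% beside 11.5% of all genes (edgeR quasi-likelihood fit, Benjamini-Hochberg adjusted). With DESeq2 size factors the split was 1 rising and 15 falling. The count was 8 with effective transcript lengths, 11 without WT myoblast replicate 3 and 9 without KO-labelled myoblast replicate 3. Over all genes the calls went from 1746 to 589, 925 and 1067 under the same settings. The median log2 fold change of the 73 genes was 0.00, beside 0.01 over all genes.

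Of 9 ligand and secretion genes 3 fell: Wnt5a (-0.74, SE 0.17, edgeR adjusted p = 0.00425), Wnt7b (-0.55, SE 0.10, 0.000305), and Wls, which carries Wnt ligands to the cell surface (-0.14). The calls of Wnt5a and Wnt7b ended with effective transcript lengths (edgeR adjusted p = 0.31 and 0.118). In the R-spondin axis, which amplifies Wnt signals by sparing Frizzled receptors, Rspo3 (-1.75, from 0.504 to 0.147 CPM) and Lgr6 (-0.66) fell and the other 4 did not pass. The Lgr6 call also ended with effective transcript lengths (edgeR adjusted p = 0.155). Of 14 receptors and co-receptors 5 fell and 3 rose, with Fzd5 (-0.39, SE 0.07, edgeR adjusted p = 0.000376) the largest fall and Lrp4, a sclerostin-binding relative of Lrp5 (0.19, SE 0.05, 0.00781), the largest rise. The Lrp4 call ended without WT replicate 1 or without KO-labelled replicate 3, and the calls of Fzd4 and Fzd3, a fall and a rise, ended in 11 and 10 of 14 alternatives. Of 11 nuclear factors 3 fell, among them the beta-catenin co-activator Bcl9 (-0.47, SE 0.06, 2.69e-06) and the co-repressor Tle3 (-0.30, SE 0.04, 5.95e-06).

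At 48 h 29 of the 73 changed, 10 rising and 19 falling, a share of 39.7% beside 25.2% of all genes (edgeR's quasi-likelihood test). Of 14 receptors and co-receptors 8 fell and 1, Ryk, rose. The calls of Ryk and of Kremen2, a fall, ended in 6 of 13 and 8 of 11 alternatives. Ptk7, a co-receptor of the planar polarity branch, fell by 0.85 (SE 0.08, edgeR adjusted p = 4.5e-09), from 35.2 to 19.5 CPM. Of 10 commonly used target genes that were tested, 3 fell and 1 rose. Ccnd1, the cell cycle gene cyclin D1, fell by 1.92 (SE 0.10, edgeR adjusted p = 8.11e-14), from 43.4 to 11.5 CPM, and the adhesion receptor Cd44 by 0.95 (SE 0.05, 2.95e-13). Myc fell by 0.57, a call that ended without KO-labelled replicate 1 of 48 h. Mki67, Pax7, Myod1 and Myf5 were lower and Mymx and Mymk higher in the same libraries, as given above for Lef1. Myog, Myh3, Ckm and Des overlapped between the labels. The part of these markers in the 48 h changes was not tested. Of 11 nuclear factors 2 rose and 2 fell. Tle3 fell by 0.56 (SE 0.05, 8.39e-10 by edgeR) and Bcl9 by 0.53 (SE 0.09, 5.54e-05), whereas Pygo2, a partner of Bcl9, rose by 0.23 (SE 0.05, 0.00146) and Ctnnbip1, an inhibitor of beta-catenin, by 0.20 (0.0333). The Ctnnbip1 call ended in 10 of 13 alternatives. Of 16 cytoplasmic genes 3 rose and 2 fell. The signal transducer Dvl1 rose by 0.34 (SE 0.05, edgeR adjusted p = 1.61e-05) and its binding protein Dact1 by 0.44 (SE 0.10, 0.00178). The kinase gene Gsk3b fell by 0.21 (SE 0.05, edgeR adjusted p = 0.00173) and the tankyrase gene Tnks by 0.26 (SE 0.05, 0.000149). In the planar polarity branch Vangl2 fell by 0.71 and the formin Daam2 rose by 0.47 (SE 0.08, edgeR adjusted p = 3.15e-05). The Vangl2 call ended with effective transcript lengths (log2 fold change -0.12, edgeR adjusted p = 0.77).

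At 72 h the balance was the other way, with 17 of the 73 rising and 2 falling, a share of 26.0% beside 13.0% of all genes (edgeR's quasi-likelihood test). With effective transcript lengths 11 were called, 10 rising and 1 falling, while calls over all genes went from 1972 to 822. The median log2 fold change of the 73 genes was 0.12, beside -0.01 over all genes. Wnt10a rose by 1.14 (SE 0.29, edgeR adjusted p = 0.009), from 0.556 to 1.22 CPM, and Lgr5, an R-spondin receptor and target gene, by 0.81 (SE 0.16, 0.000743), from 4.53 to 7.82 CPM. The secreted inhibitor Wif1 rose by 0.45 (SE 0.09, edgeR adjusted p = 0.00162) and Porcn by 0.24 (SE 0.06, 0.004). Both calls ended with effective transcript lengths (edgeR adjusted p = 0.0724 and 0.0561). Fzd1, Tle1, Tle4 and Daam2 rose by 0.30, 0.52, 0.40 and 0.46 (edgeR adjusted p at most 8.77e-05). Tle3 fell again, by 0.42 (SE 0.04, edgeR adjusted p = 2.86e-09), so that this co-repressor was lower in KO-labelled cells at each stage and in each alternative run.

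**Figure D3:**
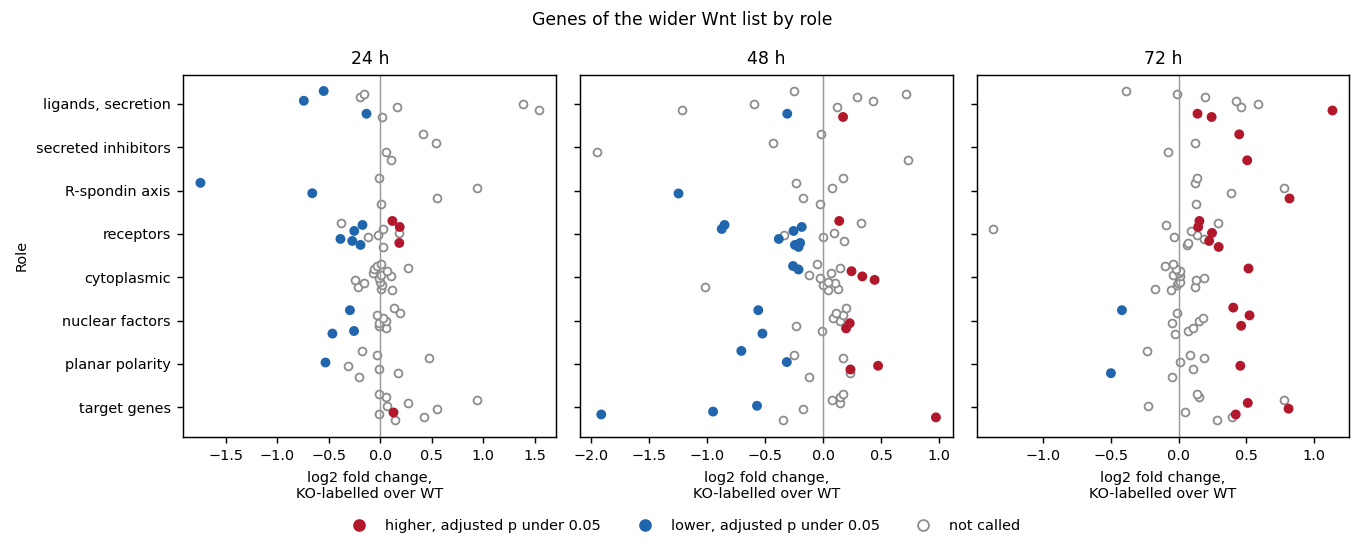
log2 fold change of KO-labelled over WT cells (horizontal axis) for the 73 tested genes of the wider Wnt list, in rows by role, at 24 h, 48 h and 72 h; a gene with 2 roles is drawn in both rows. Red and blue points are called higher and lower at an edgeR adjusted p under 0.05 and open points are not called. Counted by gene and not by point, 4 of the 18 called are higher at 24 h and 17 of the 19 called at 72 h.

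The difference between the labels itself changed with stage in 19 of the 73 genes from 24 h to 48 h (8 upward, 11 downward), in 20 from 48 h to 72 h (16 and 4) and in 15 from 24 h to 72 h, each upward, by edgeR's quasi-likelihood test. Beside these, 19.1%, 14.8% and 10.3% of all genes changed. The 24 h to 48 h split was 11 and 10 with DESeq2 size factors and 3 and 12 with library size only, and the count was 9 without KO-labelled replicate 2 of 48 h. Without KO-labelled replicate 1 of 48 h, 13 changed from 48 h to 72 h. With effective transcript lengths the counts were 7, 13 (12 upward, 1 downward) and 5, and those over all genes went from 2891, 2238 and 1557 to 1456, 980 and 667. Wls, for example, was lower in KO-labelled cells at 48 h (-0.31) and higher at 72 h (0.14), a change of 0.45 (SE 0.06, edgeR adjusted p = 2.01e-06). Ptk7 moved by 0.76 (SE 0.10, edgeR adjusted p = 1.11e-05) over the same span, and at 72 h it did not pass between the labels (-0.09, SE 0.07).

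Over the WT time course most of the wider list moved, as did most genes. From 24 h to 48 h 39 rose and 29 fell (93.2% beside 85.0% of all genes), from 48 h to 72 h 27 rose and 31 fell (79.5% beside 75.1%), and from 24 h to 72 h 37 rose and 31 fell (93.2% beside 85.5%) by edgeR's quasi-likelihood test. With library size only, 30 rose and 34 fell from 24 h to 48 h. Ligands exchanged places: Wnt7b fell by 5.16 (SE 0.17) from 24 h to 48 h, to 0.434 CPM, while Wnt10b rose by 2.85 (SE 0.13), to 10.8 CPM, and fell by 3.76 (SE 0.15) by 72 h. Porcn rose by 3.37 (SE 0.07) and then fell by 1.03 (SE 0.05), the same course as Wnt9a. Among the inhibitors Sfrp1 fell by 5.47 (SE 0.22) from 24 h to 48 h, and fell by 6.14 without WT replicate 3 of 48 h. Wif1 rose by 4.55 (SE 0.37) over the same span, from 0.0628 to 1.56 CPM. Frzb, at most 0.0352 CPM in the WT libraries of 48 h, rose by 3.17 (SE 0.27) from 24 h to 72 h, from 0.422 to 3.73 CPM. The edgeR adjusted p of these changes was at most 1.54e-11.

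Target genes in common use did not move as a block over the WT course. From 24 h to 72 h 4 of the 10 tested rose and 5 fell (edgeR's quasi-likelihood test). Those that rose were the feedback inhibitor Nkd1 (3.11, SE 0.27), Lgr5 (2.13, SE 0.22), Znrf3 and Rnf43 (under 1 CPM in each WT library). Those that fell were Ccnd1 (-6.89, SE 0.07, from 1182 CPM at 24 h), the Wnt inhibitor Apcdd1 (-4.24, SE 0.11), Cd44, Myc and Tcf7, a relative of Lef1. The edgeR adjusted p was at most 0.00105 for each of the 9. The proliferation marker Mki67 went from 199 to 0.125 CPM over the same span, and its part in these falls was not tested.

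**Figure D4:**
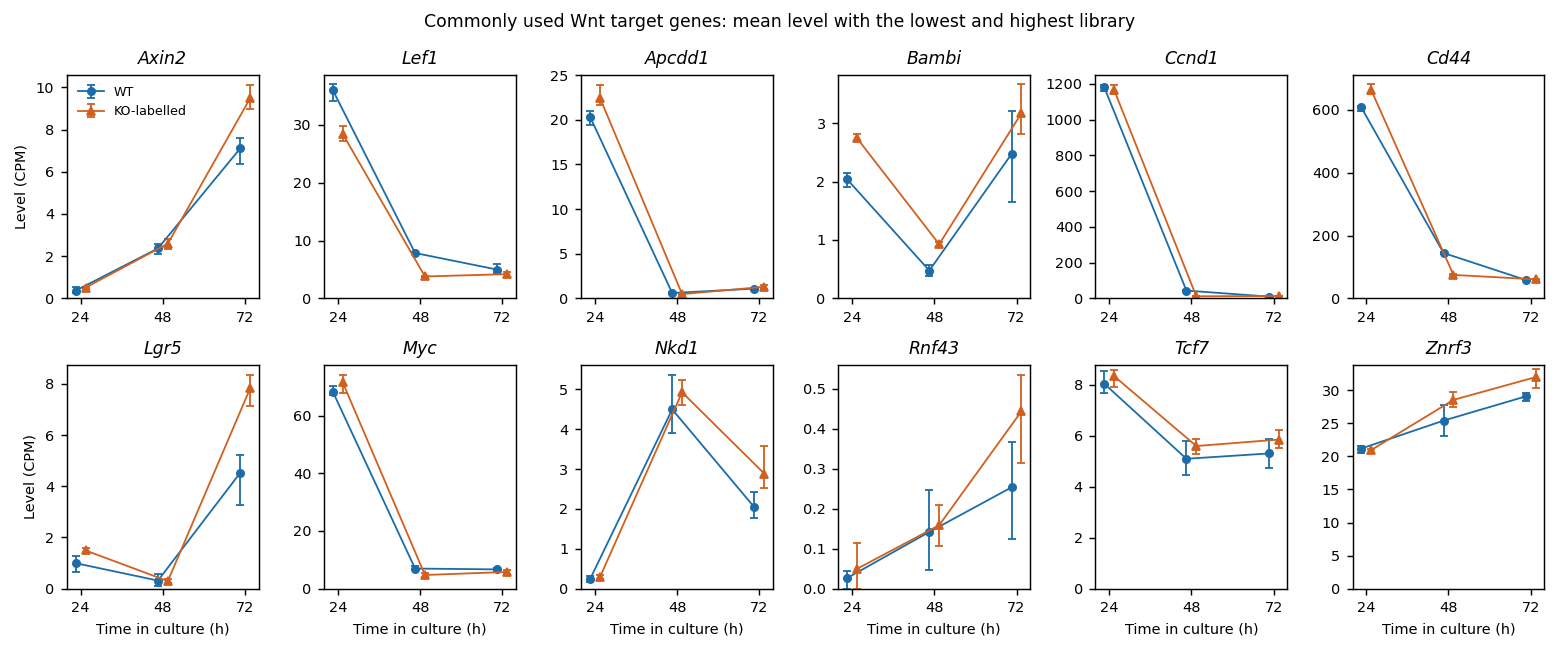
Mean level (CPM, vertical axis from 0) of Axin2, Lef1 and the 10 tested target genes of the wider list against time in culture (h), with bars from the lowest to the highest library; circles are WT and triangles KO-labelled. Axin2, Lgr5, Nkd1, Rnf43 and Znrf3 are higher at 72 h than at 24 h in WT cells, and Ccnd1, Cd44, Myc, Apcdd1, Tcf7 and Lef1 lower.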

How the data were processed

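Estimated counts, TPM and effective lengths per transcript were deposited for 19 libraries. Per the submitters' processing notes, the authors used bcl2fastq 2.20, fastp 0.20.0, kallisto 0.46.1 and edgeR 3.36 with the build GRCm38.p6. The estimated counts deposited by the authors are not normalized. The TPM values deposited by the authors are scaled per effective length within each library. Of 121843 transcripts 121018 matched GENCODE M21, and counts were summed per gene and rounded to whole numbers. The unmatched 825 transcripts held 0.255% to 0.507% of the counts. The test, over the 15123 genes passing filterByExpr, was that of edgeR 4.0.16 under R 4.3.3 (quasi-likelihood fit, TMM factors, 6 groups in 1 fit, Benjamini-Hochberg adjustment over all genes, threshold 0.05). On simulated counts for the 72 h comparison (14913 genes), 33 of 50 genes changed 1.25-fold and 46 of 50 changed 1.5-fold were recovered. The alternatives used DESeq2 1.42.0, other scalings and filters, an offset for effective length, a replicate block and fits without each library. The genes named from the wider list were, per comparison and role, the 2 called genes that rose most and the 2 that fell most, given a mean of at least 1 CPM in the higher group. Rspo3 and Wls at 24 h, Myc at 48 h, Wls and Tle4 at 72 h and Znrf3, Rnf43, Cd44, Myc and Tcf7 over the WT course were named outside this rule, after their values were seen. The genes and lists were chosen with earlier results of these data known. Same-numbered libraries did not deviate together (r from -0.053 to 0.019).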

Additional observations from a re-analysis of the deposited data

Results flagged for a closer look

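Sost in KO-labelled fused myotubes had 1 library far from the other 3, replicate 2 at 0.9453 CPM, from 17 estimated counts against 8 to 12. Groups of 4 libraries were checked in 20 cases, and chance flags about 1 in 20 groups. In CPM, Wnt4 had all KO-labelled libraries below WT at 24 h (log2 fold change -1.378) and above it at 48 h (0.21). This crossing was chosen for its values and not tested. The 48 h difference was not called, and in TPM the 48 h libraries overlapped.

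In the wider list, the difference between the labels changed with stage by at least 1 on the log2 scale in 5 genes, by the interaction test of edgeR. From 24 h to 48 h Wnt5a changed by 1.174 (edgeR adjusted p = 0.0387), Rspo3 by 1.515 (0.0382), Ccnd1 by -1.897 (3.3e-12) and Cd44 by -1.078 (4.74e-12). The calls of Ccnd1 and Cd44 held in all 19 alternatives, but that of Wnt5a ended in 10 of them (the replicate block, the effective length offset and the DESeq2 test among them) and that of Rspo3 in 9. From 48 h to 72 h Lgr6 changed by 1.635 (edgeR adjusted p = 0.0267), Ccnd1 by 2.336 (5.96e-12) and Cd44 by 1.0 (8.44e-11). The calls of Ccnd1 and Cd44 held in all 21 alternatives, and that of Lgr6 ended in 7, including the effective length offset (edgeR adjusted p = 0.201) and the fit of only the groups compared. From 24 h to 72 h Wnt5a changed by 1.167 (edgeR adjusted p = 0.00451), Rspo3 by 1.871 (0.00265) and Lgr6 by 1.047 (0.047). Of these, the Rspo3 call held in all 22 alternatives, the Wnt5a call ended with the effective length offset (edgeR adjusted p = 0.131), and the Lgr6 call ended in 13, with an edgeR adjusted p of 0.272 under that offset.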

How the results depend on the processing

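With the effective length offset, 2, 3 and 2 of the 10 genes were called between the labels in order of time, and 0 and 1 changed their difference from 48 h to 72 h and from 24 h to 72 h. The wider list then had 8 calls at 24 h and 11 at 72 h, and its changes of difference numbered 7, 13 and 5. Over all 15123 genes the same offset gave 589, 2150 and 822 calls between the labels, against 1746, 3811 and 1972 without it. Changes of difference over all genes numbered 1456, 980 and 667 with the offset, against 2891, 2238 and 1557 without it. Vangl2 turned direction under the offset, to 0.199 from 24 h to 48 h and to -0.165 from 48 h to 72 h. The cause was not tested. With only the groups compared in the fit, 3 of the 10 genes were called at 48 h, beside 2993 of 13624 genes tested. For the change from 48 h to 72 h, library size only gave 4 of the 10 genes. No filter, the replicate block and the DESeq2 test gave 1 each. Over all genes these settings gave, in that order, 2217 of 15123, 2173 of 26257, 2149 of 15123 and 2194 of 12770. For the change from 24 h to 72 h, DESeq2 size factors, no filter and the DESeq2 test gave 1 each. Over all genes they gave 1495 of 15123, 1630 of 26257 and 1448 of 12770.

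Leaving out 1 library at a time, the 10 genes had 3 to 5 calls at 48 h, 1 to 3 changes of difference from 48 h to 72 h and 1 to 2 from 24 h to 72 h. The wider list had 9 to 14 calls at 24 h, 9 to 19 changes from 24 h to 48 h and 13 to 21 from 48 h to 72 h. Without WT replicate 1 of 48 h the 10 genes had 3 calls at that stage. Where both KO-labelled libraries of 48 h were kept, all genes had 925 to 1338 calls at 24 h and 3287 to 3634 at 48 h. In the same fits all genes had 2446 to 2730 changes of difference from 24 h to 48 h and 1956 to 2238 from 48 h to 72 h. From 24 h to 72 h all genes had 1052 to 1553 changes.

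With the replicate block the wider list had 16, 26 and 16 calls between the labels, 68, 57 and 68 between WT stages and 20, 18 and 15 changes of difference. The 10 genes then had 4, 6 and 4, then 10, 9 and 10, and then 4, 1 and 2. Over all 15123 genes the block gave 1666, 3661 and 1858 calls between the labels and 12811, 11174 and 12774 between WT stages. Changes of difference over all genes numbered 2811, 2149 and 1512 with the block. Replicate numbers are only names here. Sost at 48 h is limited by 6 and 7 estimated counts under the KO label, and Axin2 at 24 h by 8 to 18.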
